A study of Homo sapiens with 23 samples.

Results

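The COPII coat is the protein shell that forms transport vesicles on the endoplasmic reticulum (ER), and its genes are described here in cervical carcinoma cells given a microRNA mimic. The 10 genes, SEC23A, SEC23B, SEC24A, SEC24B, SEC24C, SEC24D, SEC31A, SEC13, SAR1A and SAR1B, were found by symbol among 61217 listed genes, and all 10 were present in each comparison. They were chosen by a measured value: SEC23A fell after miR-23b-3p in both cell lines, and its paralogs and partners were added for contrast. What chose them is given as a description only.

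The series holds oligo(dT)-enriched RNA sequencing of 23 samples from cervical squamous carcinoma lines, C-33A (HPV-negative) and CaSki (HPV-positive, labelled metastatic). Cells were given negative control number 1 or hsa-miR-124-3p, hsa-miR-23b-3p or hsa-miR-218-5p, here called mimics, always at 100 nM. Each of the 8 groups has 3 samples, except C-33A with miR-124-3p, which has 2. Every mimic is compared with the negative control of its line, so the 3 comparisons of a line share their control samples. Separate cultures are not stated for the samples, and the p-values rest on a spread between samples that may be technical. Sample titles carry RB1, RB2 or RB3, repeated over the groups of a line, with RB2 and RB3 for C-33A with miR-124-3p. The titles do not explain RB, and no pairing by it could be fitted here. The values are those of the authors' deposited table of each comparison; values per sample and sequencing depth are not analysed here. Of the 5 epithelial and 4 squamous markers checked, all were above 1 in average log2 CPM, the deposited expression level, in CaSki (5.70 to 12.08) and none in C-33A (-3.38 to 0.88). These markers do not bear out the labelled squamous type of C-33A. In C-33A 2 of 5 fibroblast markers were above 1, COL1A2 at up to 2.97 and COL3A1 at up to 7.22, while COL1A1, DCN and PDGFRB were below, and of 4 leukocyte markers 1 was above, PTPRC at up to 2.67, with CD3E, CD14 and CD68 below. Genes at 1 or above on this scale are called expressed, and all 10 members are expressed in every comparison.

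A COPII vesicle starts when the small GTPase SAR1 is loaded with GTP and enters the ER membrane. SAR1 recruits the inner coat, a pair of SEC23, which stimulates GTP hydrolysis by SAR1, and SEC24, which binds the cargo. SEC13 and SEC31 then form the outer cage that bends the membrane. Mammals carry paralogs of most subunits, and inherited defects differ by paralog: SEC23A is linked to a craniofacial and skeletal disorder, SEC23B to a dyserythropoietic anaemia and SAR1B to a fat malabsorption disorder.

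A microRNA pairs with a target mRNA mainly through its seed, bases 2 to 8. The mature sequences below (RefSeq, GRCh38.p14, seed in capitals) show what was given; the miR-23b-3p seed is shared by 3 mature microRNAs in that table, hsa-miR-23a-3p, hsa-miR-23b-3p and hsa-miR-23c. Of the 3 mimics, 2 were matched to that table.
hsa-miR-23b-3p: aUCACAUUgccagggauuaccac
hsa-miR-218-5p: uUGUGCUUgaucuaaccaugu

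Matches to each seed were then sought in the longest annotated 3' UTR of every member (GENCODE release 29, GRCh38), as AATGTGA for miR-23b-3p and AAGCACA for miR-218-5p, on the transcribed strand. A 7-base match followed by an A is called an 8mer, and other matches are called 7mer. SEC23A was the member with 8mer matches, and it had 2 of them. SEC24A had 3 7mer matches to miR-23b-3p, SEC23B and SAR1A had 1 each, and the other 6 members had none to this microRNA. SAR1B was the member with matches to miR-218-5p, 2 of the 7mer kind. The same 4 members held miR-23b-3p matches, and SAR1B alone miR-218-5p matches, when the 3' UTRs of all annotated coding transcripts were searched. Matches that start before the 3' UTR are not counted here. SEC23B, SEC24B, SEC24C, SEC24D and SAR1A each had 1 of these for miR-23b-3p, and SEC24B had 1 for miR-218-5p. Over 19133 genes with a 3' UTR, 18.4% held a miR-23b-3p match and 8.73% an 8mer, and 14.0% held a miR-218-5p match. A match is a description of the sequence, not a shown binding site.

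The 30-base windows below are written on the transcript strand with the matched bases in capitals, including the A of an 8mer. Windows of SEC23A, SEC23B, SEC24A and SAR1B are shown, and that of SAR1A is not. Both SEC23A windows lie in its 3' UTR on chromosome 14, minus strand, at chr14:39032820-39032849 and chr14:39032592-39032621.
SEC23A first site: caaaaaaacaatagtaatgataAATGTGAA
SEC23A second site: aacaatcccgcagctgacaaaaAATGTGAA

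The single window of SEC23B lies at chr20:18561086-18561115 on the plus strand. The SEC24A windows lie at chr5:134725171-134725200, chr5:134726766-134726795 and chr5:134727565-134727594, plus strand. These 4 matches are all 7mers.
SEC23B site: tggctaaaatattgctaatacaAATGTGAt
SEC24A first site: ttttctattatgtttgtggactAATGTGAt
SEC24A second site: aaataactaaaatgttcctcttAATGTGAt
SEC24A last site: gctattatctaggggaccaccaAATGTGAt

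The SAR1B windows for miR-218-5p lie at chr5:134606126-134606155 and chr5:134604410-134604439, minus strand.
SAR1B first site: gtgggattggccttctgaagaaAAGCACAt
SAR1B second site: agaggatggcaagaaacagtagAAGCACAg

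The SEC23A matches start at bases 412 and 640 of a 3' UTR of 1320 bases. The SEC23B match starts at base 368 of 675, and the SEC24A matches at bases 99, 1694 and 2493 of 2729. Of 6 coding transcripts of SEC23A with an annotated 3' UTR, 2 held matches. Predicted duplex energies of the mimic with each miR-23b-3p window (RNAduplex) were -9.70 and -15.00 kcal/mol for SEC23A, -10.40 for SEC23B, -14.50, -14.80 and -12.20 for SEC24A, and -12.50 for SAR1A. These energies did not set the SEC23A windows apart from the others.

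**Figure D1:**
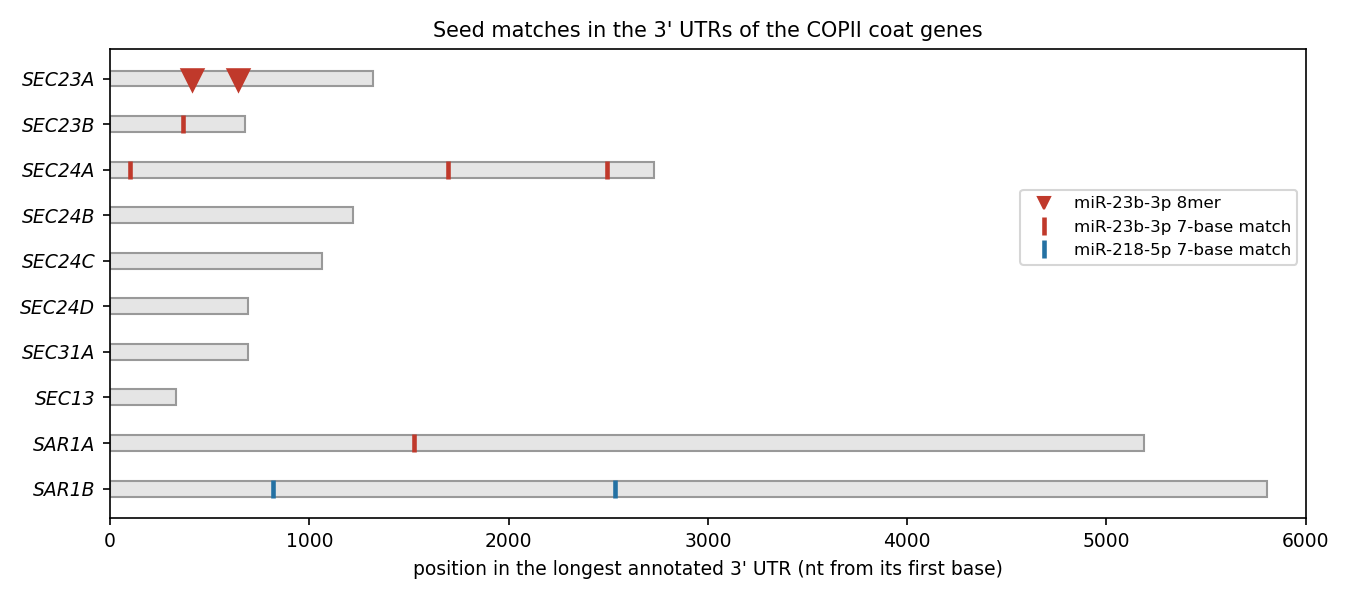
Seed matches along the longest annotated 3' UTR of each COPII gene, in bases from the first base of the 3' UTR; grey bars show its length, triangles 8mer matches and ticks 7mer matches, in red for miR-23b-3p and blue for miR-218-5p. SEC23A carries 2 triangles within its 1320 bases, and SEC24A carries 3 ticks within 2729.

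SEC23A, the inner coat subunit that activates hydrolysis by SAR1, fell after miR-23b-3p to 55.0% of the control level in C-33A and to 55.1% in CaSki, in the authors' deposited tables. In bulk samples, fewer cells of a type and less RNA per cell cannot be told apart. The log2 fold change in the authors' deposited table was -0.86 (SE 0.167) in C-33A and -0.86 (SE 0.134) in CaSki. These values chose the members, by a deposited FDR of 0.00133 and 9.26e-07, and nothing is read from them beyond their size. The other values after miR-23b-3p come from the same contrast and are descriptions too. SEC23A was the member called at an FDR under 0.05, 1 of 10 in each line. Called genes made up 0.0474% of all listed genes and 0.225% of expressed genes in C-33A, and 2.4% and 10.4% in CaSki. The member nearest to the threshold on its other side was SEC24A in C-33A (-0.53, FDR = 1) and SEC24D in CaSki (0.44, FDR = 0.129), in the authors' deposited tables.

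With the other mimics, all 4 intervals of SEC23A included 0. In the authors' deposited tables for miR-124-3p they were -0.04 (95% interval -0.36 to 0.29) in C-33A and 0.09 (-0.16 to 0.33) in CaSki. For miR-218-5p the authors' deposited tables gave -0.22 (-0.54 to 0.10) in C-33A and 0.07 (-0.16 to 0.30) in CaSki. None of these 4 values was called, and each had a deposited FDR of 1. When miR-23b-3p was set against the average of miR-124-3p and miR-218-5p, so that the shared controls drop out, the value was -0.73 for SEC23A in C-33A and -0.94 in CaSki. That contrast reuses the values that chose the members, so it too is a description.

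SEC23B, the paralog of SEC23A, stood at 0.06 (95% interval -0.27 to 0.39) in C-33A and -0.05 (-0.26 to 0.16) in CaSki after miR-23b-3p, in the authors' deposited tables. These are descriptions, since SEC23B was chosen as the contrast to SEC23A. In the authors' deposited tables SEC23B stood at 0.20 and 0.23 after miR-124-3p and at 0.08 and 0.11 after miR-218-5p, in C-33A and CaSki respectively, and it was called in none of the 6 comparisons. Its longest coding transcript shares no 50-base stretch with transcripts of other genes, and that of SEC23A shares none with SEC23B.

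**Figure D2:**
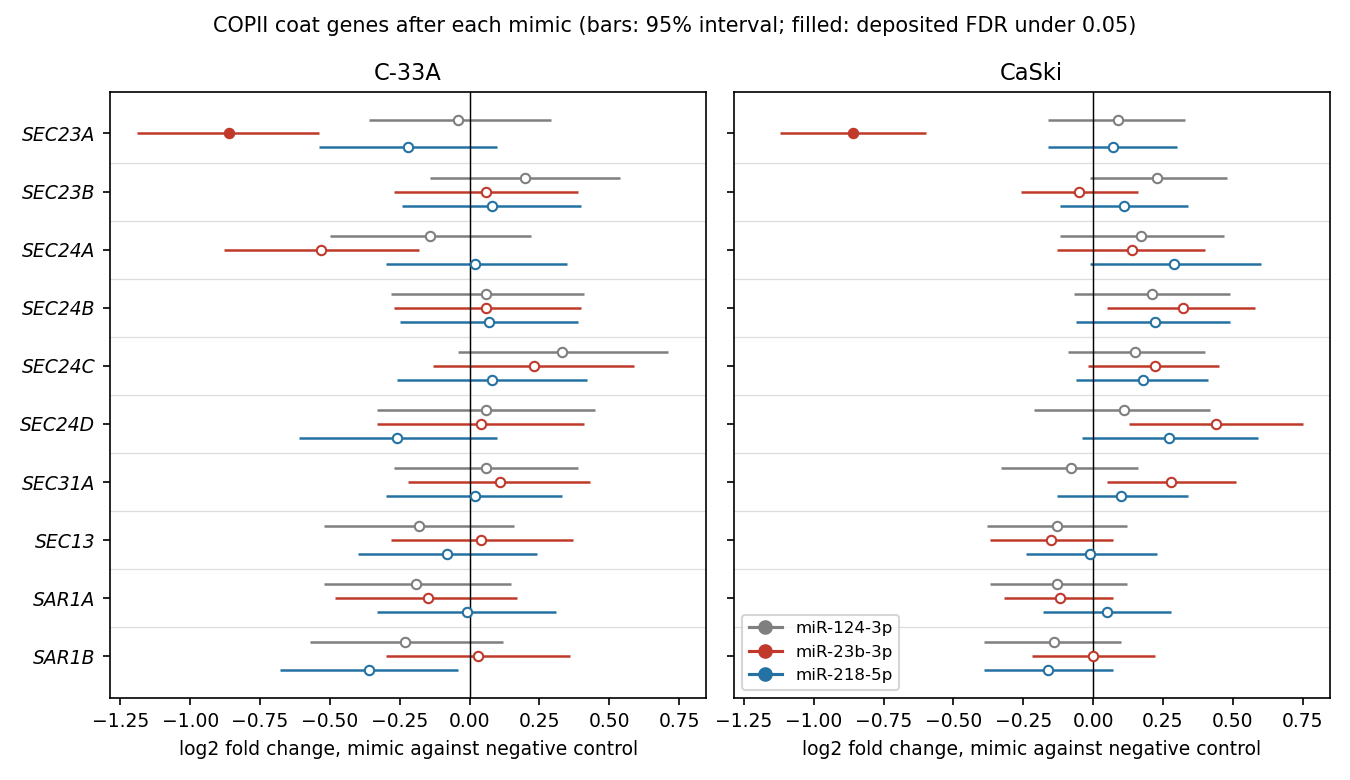
Log2 fold change of each COPII gene with each mimic against the negative control of its line, C-33A on the left and CaSki on the right; bars are 95% intervals from the recovered SE, and filled points have a deposited FDR under 0.05. The filled points are those of SEC23A after miR-23b-3p, at -0.86 in both lines.

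The SEC24 subunits, which bind cargo, were called in no comparison. SEC24A, with 3 matches to miR-23b-3p, was the lowest of the 4 in C-33A, at -0.53 (95% interval -0.88 to -0.18, unadjusted p = 0.00322, FDR = 1) in the authors' deposited table. In CaSki the authors' deposited table gave 0.14 (-0.13 to 0.40) for SEC24A after the same mimic. The difference between the lines was -0.66 (SE 0.224), without removal of the trend with transcript length given below. It is given as a description, since the rule used this contrast. SEC24A and SAR1B overlap at one end on opposite strands, and 5.4% of the 50-base stretches of the longest SEC24A transcript also occur in SAR1B transcripts, so their values are uncertain to that extent, since the strand setting of the counting is not known.

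SEC24D was the highest of the coat genes after miR-23b-3p in CaSki, at 0.44 (0.13 to 0.75), with SEC24B at 0.32 (0.05 to 0.58) and SEC24C at 0.22 (-0.02 to 0.45), in the authors' deposited table. With p-values adjusted over expressed genes, the adjusted p of SEC24D was 0.032, and called members went from 1 to 2. In C-33A the authors' deposited table gave 0.04 for SEC24D, 0.06 for SEC24B and 0.23 for SEC24C. Fold changes of that CaSki comparison followed transcript length (Spearman's rho = 0.425 over 11291 genes, which are not independent replicates), against -0.064 over 11038 genes in C-33A. The fitted trend at the length and GC content of these genes was 0.07 for SEC24D, 0.12 for SEC24B and 0.08 for SEC24C in CaSki. For SEC24A the fitted trend was 0.19 in CaSki and -0.07 in C-33A. After it was subtracted, SEC24A stood at -0.06 in CaSki and -0.46 in C-33A. SEC24C shares 36.8% of its 50-base stretches with an overlapping annotated gene, AC022400.8, so its value is uncertain.

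After miR-124-3p and miR-218-5p, the SEC24 genes ranged from -0.14 to 0.33 and from -0.26 to 0.29 in the authors' deposited tables. SEC24D differed most between the lines after miR-218-5p, at -0.26 in C-33A and 0.27 in CaSki in the authors' deposited tables. That difference of -0.53 (SE 0.241) had an unadjusted p of 0.028 and an adjusted p of 1 in a normal test over 12902 genes.

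The outer cage showed no call. SEC31A stood at 0.11 (-0.22 to 0.43) in C-33A and 0.28 (0.05 to 0.51, FDR = 0.283) in CaSki after miR-23b-3p, in the authors' deposited tables. SEC13, which is also a subunit of the nuclear pore, stood at 0.04 (-0.28 to 0.37) and -0.15 (-0.37 to 0.07) in the authors' deposited tables. With the other mimics, the authors' deposited tables gave -0.08 to 0.10 for SEC31A and -0.18 to -0.01 for SEC13.

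The GTPases SAR1A and SAR1B were called in no comparison either. SAR1A, with 1 match to miR-23b-3p, stood at -0.15 (-0.48 to 0.17) in C-33A and -0.12 (-0.32 to 0.07) in CaSki after that mimic, in the authors' deposited tables. After the fitted trend was subtracted, SAR1A stood at -0.29 in CaSki (adjusted p = 0.0408). SAR1B stood at 0.03 (-0.30 to 0.36) in C-33A, and its interval in CaSki ran from -0.22 to 0.22, in the authors' deposited tables. After miR-124-3p SAR1B was the lowest coat gene in both lines, at -0.23 in C-33A and -0.14 in CaSki in the authors' deposited tables. Of 5 coding transcripts of SAR1B with an annotated 3' UTR, 1 held its 2 matches to miR-218-5p. After miR-218-5p SAR1B was again the lowest coat gene in both lines. The authors' deposited tables gave -0.36 (-0.68 to -0.04, unadjusted p = 0.029) in C-33A and -0.16 (-0.39 to 0.07, unadjusted p = 0.174) in CaSki, each with an FDR of 1.

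Over the set, 0 of 10 members were called after miR-124-3p in C-33A and CaSki, and 0 of 10 after miR-218-5p. No member had an unadjusted p under 0.05 after miR-124-3p in either line or after miR-218-5p in CaSki, and SAR1B alone had one after miR-218-5p in C-33A (edgeR, as deposited). Called genes made up 0.162% of all listed genes and 0.754% of expressed genes after miR-124-3p in C-33A, and 0.305% and 1.4% in CaSki. After miR-218-5p these shares were 0.0751% and 0.357% in C-33A, and 0.0245% and 0.115% in CaSki, so a count of 0 among 10 genes is near the background in all 4 comparisons. The median of the 10 log2 fold changes was 0.01 and 0.10 after miR-124-3p, beside -0.01 and -0.02 over expressed genes, in C-33A and CaSki respectively. After miR-218-5p it was 0.00 in C-33A, beside -0.04, and 0.11 in CaSki, beside 0.01. There, 5 of 10 members lay below 0 in C-33A against 2 of 10 in CaSki. Expressed genes differed in the same direction, with 7729 of 12901 below 0 in C-33A and 6165 of 13080 in CaSki. For miR-124-3p, and likewise for miR-218-5p, 0 of 10 members had a difference between lines at an adjusted p under 0.05, as did 0% of all genes tested. After miR-23b-3p, where the rule used both lines, nothing is read from the members' differences. The share of all genes tested that differed there was 1.7%.

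The values of the members after miR-23b-3p were set beside those of all expressed genes that hold the same kind of matches. In C-33A, 158 genes had 2 or more 8mer matches, as SEC23A has, with a median of -0.24 and 142 of them below 0. Of these, 8 fell (5.06%), SEC23A among them. Genes with 1 8mer had a median of -0.11, and 8263 genes without a match had one of 0.05, of which 1 fell. SEC24A was among 181 genes with 2 or more 7mer matches and no 8mer, where the median was -0.08 and none fell. SEC23B and SAR1A were among 1062 genes with 1 7mer match, where the median was -0.04.

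In CaSki the medians of the classes ran from -0.04 to 0.12. The 154 genes with 2 or more 8mer matches had a median of 0.01, 74 of them lay below 0 and 6 fell (3.90%), SEC23A among them. Genes without a match had a median of -0.04, and 450 of 8742 fell (5.15%). The 173 genes of the SEC24A class had a median of 0.12, close to the 0.14 of SEC24A. The share of falls was not tested between classes. The classes were not matched for transcript length, which the fold changes of this CaSki comparison followed (Spearman's rho = 0.425 over 11291 genes).

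For miR-218-5p, SAR1B was among 165 genes in C-33A with 2 or more 7mer matches and no 8mer, whose median was -0.12, with 28 of them lower than SAR1B. In CaSki the 167 genes of this class had a median of 0.01, with 39 lower than SAR1B.

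**Figure D3:**
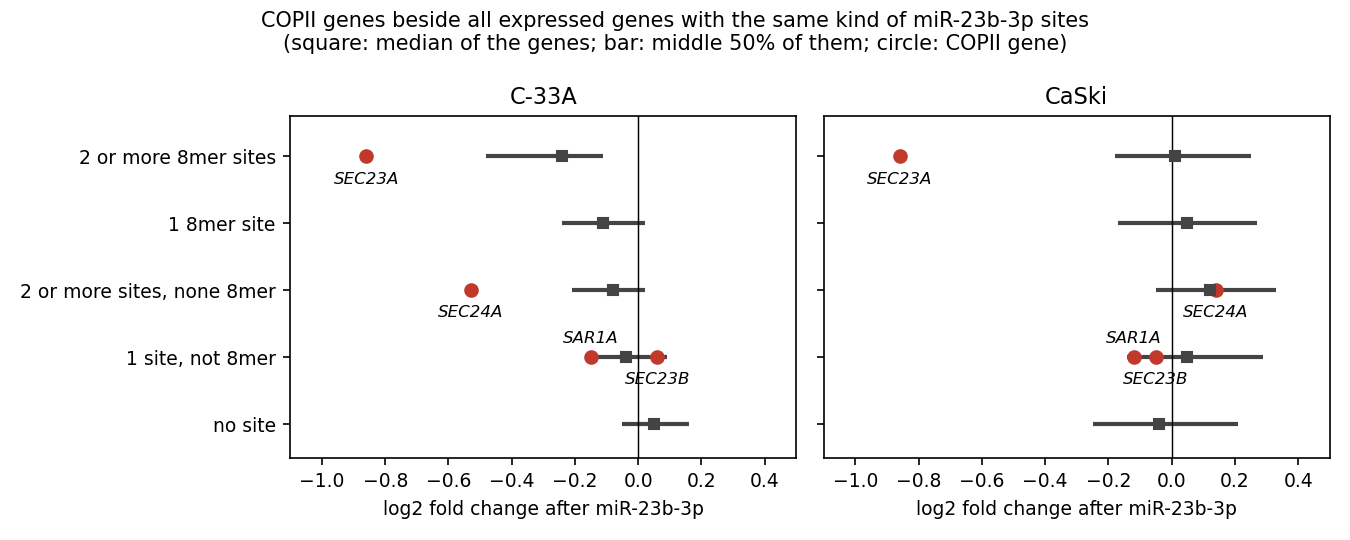
Log2 fold change after miR-23b-3p of COPII genes (red circles) beside all expressed genes of the same match class (square, median; bar, middle 50% of genes), C-33A on the left and CaSki on the right. SEC23A lies at -0.86 in both lines, while the median of its class is -0.24 in C-33A and 0.01 in CaSki.

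SEC23A was among 7 genes that fell after miR-23b-3p in both lines, 36.8% of the 19 falls in C-33A and 1.15% of the 609 in CaSki. In the order of their mean log2 fold change these were DDAH1, B4GAT1, SEC23A, SMS, EIF4EBP2, ZNF45 and MSMO1. SEC23A was the gene of the 7 with 2 8mer matches. B4GAT1 and EIF4EBP2 had 1 8mer each, DDAH1, SMS and MSMO1 had 1 7mer each, and ZNF45 had none. No gene rose in both lines after this mimic, where 10 genes rose in C-33A and 863 in CaSki. Of 13119 expressed genes in CaSki, 586 fell and 773 rose, and of 12862 in C-33A, 19 fell and 10 rose. The overlap of falls or of rises between the lines was not tested. The 5 coding genes most like SEC23A over the 6 comparisons, by the root mean square difference of their log2 fold changes over 8902 genes at 2 or above in average log2 CPM, were SMS (0.168), NACC2 (0.194), LYSMD2 (0.196), ZNF45 (0.203) and UQCR10 (0.203). The comparisons of a line share control samples, so this likeness is a description.

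Levels were compared between genes as the average log2 CPM per kb of the longest coding transcript, which the deposited tables give once per comparison, over mimic and control samples together. All exons of a gene together span more, at 5446 bases against 1603 for SEC13 and 6914 against 5981 for SAR1A. The order of genes below holds for the longest coding transcript and may differ with that other length. The ranges below run over the 3 tables of a line, which share control samples. SEC23A had the highest level of the coat in C-33A (6.35 to 6.73), followed by SEC13 (at most 6.07), SEC31A (5.04 to 5.06) and SAR1A (4.93 to 5.02). SEC23B was at 4.59 to 4.66, so SEC23A was the more abundant SEC23 transcript. SEC24B (3.94 to 3.96) and SAR1B (3.37 to 3.54) came next, then SEC24A (2.81 to 3.08), whose range overlaps those of SEC24C (2.89 to 3.0) and SEC24D (2.68 to 2.83).

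In CaSki the ranges of SEC23A (5.26 to 5.72) and SEC13 (5.63 to 5.67) overlapped, above SAR1A (5.00 to 5.07) and SEC23B (4.58 to 4.69). SEC31A (3.56 to 3.71) and SEC24C (3.55) followed, then SAR1B (3.34 to 3.45), SEC24B (2.90 to 2.93) and SEC24D (2.61 to 2.71), and SEC24A was lowest (2.31 to 2.58). SEC31A had a middle average log2 CPM 1.42 higher in C-33A than in CaSki, SEC24B 1.03 higher and SEC23A 0.93 higher, while SEC24C was lower by 0.60 (difference -0.60). SEC23B differed by 0.01. The tables of the lines were normalized separately, and with no values per sample these differences were not tested.

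**Figure D4:**
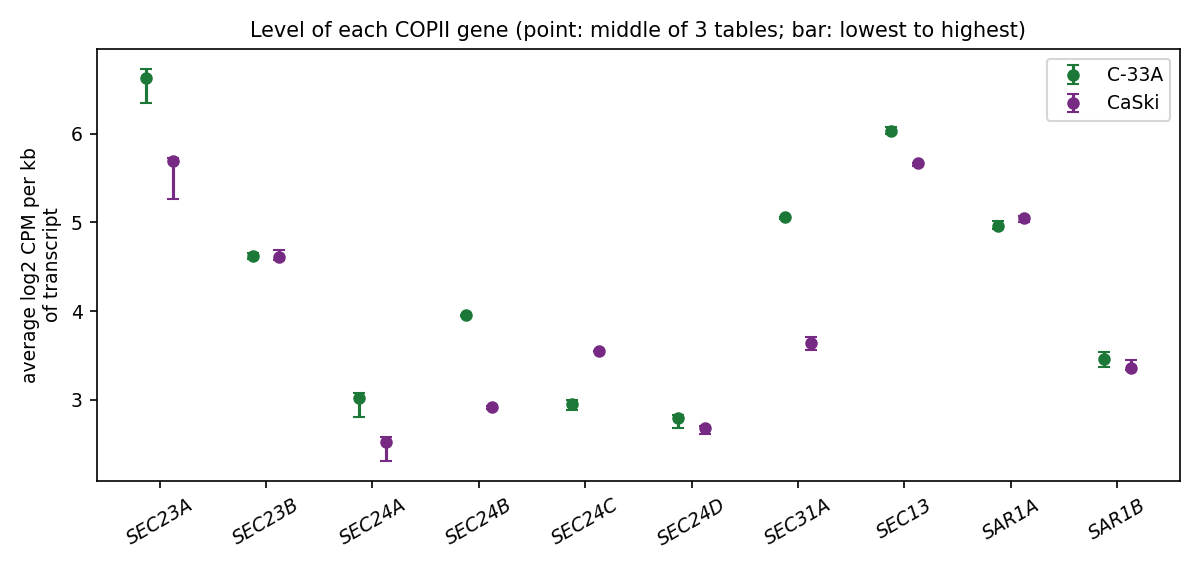
Average log2 CPM per kb of the longest coding transcript for each COPII gene in C-33A (green) and CaSki (purple); points are the middle of the 3 deposited tables of a line and bars run from the lowest to the highest. SEC23A lies highest in C-33A, at 6.35 to 6.73, and its wide bar holds the table of the miR-23b-3p comparison at the low end.

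The rest of the route between ER and Golgi was read from a list of 82 genes of coat assembly, cargo sorting, tethering and the COPI coat. After miR-23b-3p in C-33A, 0 of 82 were called, with a median of 0.02 over 77 expressed genes, the same as over all such genes. In CaSki 8 rose and 3 fell, with a median of 0.02 beside -0.01. In the authors' deposited table TFG, which organises ER exit sites, rose by 0.90 (SE 0.153, adjusted p = 8.15e-06), and the exit site scaffold SEC16A rose by 0.85. CREB3L2, a transcription factor known to act on SEC23A in cartilage, rose by 0.91 in the authors' deposited table (adjusted p = 0.00048). In the authors' deposited table the COPI genes COPA and GBF1, an exchange factor for ARF1, rose by 0.54 and 0.83, and the cargo receptor TMED3, with 2 matches to miR-23b-3p, fell by 0.50 (adjusted p = 0.00185). ARF5 (-0.47, adjusted p = 0.00459) and PREB (-0.40, adjusted p = 0.021), the exchange factor that loads SAR1, also fell in the authors' deposited table, and are named because their values were seen. COPG2 and MIA3 are named for their matches to miR-23b-3p. COPG2, with 2, rose by 0.58, and MIA3, with 1, rose by 0.41 in the authors' deposited table. The other called genes of the list in this comparison, ARF5 and PREB among them, had no match. Direction by match was not tested. After the fitted trend was subtracted, ARF5, PREB and MIA3 lost their calls, GORASP1, SEC22B, SEC23IP and TRAPPC1 gained one, and TMED3 stood at -0.86. By role, 4 of 15 assembly and exit site genes rose and 1 fell, and 4 of 17 COPI genes rose and 1 fell. Of 22 cargo receptor and sorting genes 1 fell, and 0 of 28 tethering and fusion genes were called. Of expressed genes, 41.7% of the 12 for assembly and exit sites and 29.4% of the 17 for COPI were called. For cargo receptors and sorting the share was 4.55%, and for tethering and fusion 0%. Shares were not tested between roles. The 11 called genes are 13.9% of the 79 expressed genes of the list, near the 10.4% of expressed genes in that comparison.

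After miR-124-3p, 0 of 82 were called in C-33A and 2 fell in CaSki, the cargo receptors TMED1 at -0.99 and LMAN2L at -0.71 in the authors' deposited table. In C-33A the authors' deposited table gave -0.68 for each of them, neither called (adjusted p = 0.413 and 0.198). After miR-218-5p, 0 of 82 were called in C-33A and 1 rose in CaSki, the cargo receptor subunit MCFD2, by 0.62 in the authors' deposited table (adjusted p = 0.0417). That call was lost when fold changes were centred on their median. In CaSki the called genes were 2.53% of the 79 expressed list genes after miR-124-3p, beside 1.4% of all expressed genes. After miR-218-5p they were 1.27% of 79, beside 0.115%. In C-33A 0% of the list was called after miR-124-3p and miR-218-5p, beside 0.754% and 0.357% of all expressed genes respectively.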

How the data were processed

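The submitters' processing notes name FastQC (0.73), STAR (2.7.10b), featureCounts (2.0.3), edgeR (3.36.0) and the build GRCh38 (hg38), without a strand setting. The 6 deposited tables hold, for 61217 genes and per the file headers, log2 fold changes, average log2 CPM values, an F score, p-values and FDRs. The members and lists were chosen with earlier results of these data known. The design foresaw a fit to counts or the deposited statistics; the latter applied, since each file is a table of a comparison. Recomputed by the Benjamini-Hochberg method with every listed gene, the FDR matched the deposited one (largest difference 1.6e-13), and calls were made under 0.05.

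Each SE is the size of the log2 change over the normal quantile of its deposited p-value, and 95% intervals use it. The F score and p-value of SEC23A correspond to denominator degrees of freedom of 183651 and 244868 in C-33A but 25.72 to 38.18 in CaSki, so the lines were tested with unequal pooling of the spread. In CaSki the SE given here is therefore larger than one taken from the F score, most so for strongly changed genes. The difference between lines was given a normal test with these SEs, adjusted over genes at 0 or above in average log2 CPM in both lines. Scripts used Python 3.11.15, scipy 1.17.1, statsmodels 0.14.6 and RNAduplex 2.7.2, and were tested on simulated data. The trend on length and GC content was a robust spline over transcripts of GENCODE release 29. Named genes were all members, called genes of the 82-gene list (at most 6 a comparison, by lowest p), genes that fell after miR-23b-3p in both lines and the 5 most like SEC23A.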

Additional observations from a re-analysis of the deposited data

How the results depend on the processing

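No paired analysis was possible because the tables hold no values per sample; for the same reason no replicate could be left out. Other FDR thresholds (0.10 and 0.01), adjustment over expressed genes (average log2 CPM at or above 1), centring on the median and removal of the trend on length and GC content were run on the counts of called genes and on each coat gene. The differences between lines were run without the other thresholds, and the seed matches with the 3' UTRs of all coding transcripts. SEC23A was still called after miR-23b-3p under all 5, with -0.77 in C-33A and -0.96 in CaSki when the trend was removed. The values of SEC23A after this mimic chose the members, so this too is a description. The count of called coat genes after miR-23b-3p in CaSki went from 1 to 2 when adjusted over expressed genes, with SEC24D (0.44, adjusted p = 0.032), and to 2 with the trend removed, with SAR1A (-0.29, adjusted p = 0.0408). The other 5 counts of called coat genes did not change under these alternatives. The counts that differ between lines stayed at 0 under the 3 alternatives run on them, at a threshold of 0.05. The lowest adjusted p of that normal test was 0.0864 (SEC24A after miR-23b-3p). For that mimic the lowest was 0.0774 to 0.595 under the alternatives. Nothing is read from these values, since the rule used both lines for miR-23b-3p. With the trend removed, signs turned for SEC23A (0.05) and SEC13 (-0.03) in C-33A after miR-124-3p and miR-23b-3p respectively, for SEC24A in CaSki after miR-23b-3p (-0.06), for SEC13 (0.02) and SAR1A (-0.04) in CaSki after miR-218-5p, and for SAR1A in C-33A after miR-218-5p (0.02, and 0.03 when centred); none of these was called. For the 82-gene list, called genes after miR-23b-3p in CaSki went from 11 to 17 and 7 at thresholds of 0.10 and 0.01, and to 20 when adjusted over expressed genes. With the trend removed they were 12, of which 8 were shared with the 11, with 3 calls lost (ARF5, PREB and MIA3) and 4 gained. After miR-124-3p in CaSki they went from 2 to 1 at 0.01 and to 4 both with adjustment over expressed genes and with the trend removed, and in C-33A from 0 to 1 with each of the last pair (LMAN2L). After miR-218-5p in CaSki they went from 1 to 0 at 0.01 and when centred. The adjustment covers fewer genes by construction; the cause of the other moves was not tested.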
